A study of Mus musculus with 4 samples.

Results

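The miRNA cargo of extracellular vesicles (EVs) released by cultured hepatocytes of wild-type mice was compared between a high-fat diet and chow, across all 1881 miRNAs on an Agilent mouse miRNA array. The comparison used 2 of the 4 arrays of the series, 1 for each diet. HFD-EV came from wild-type male B6 mice (C57BL/6J in the methods) that were 20 weeks old and had eaten the high-fat diet for 12 weeks, and Chow-EV from wild-type male B6 mice of the same age that had eaten chow for as long. Their hepatocytes were cultured for 48 h in medium with EV-depleted serum, so the EVs are those released in culture and not those of the liver or the blood. HFD-LKO EV and Chow-LKO EV came from male mice of the same age and diets that lacked Ggpps, an enzyme of isoprenoid synthesis, through Mx1-Cre, whose interferon-responsive promoter is switched on by injection of polyinosinic-polycytidylic acid (PIPC). The methods describe the deletion as limited to the liver. The sources used here do not state whether the wild-type mice received PIPC. Each array held EVs pooled from 4 animals, so each group is 1 measurement, no test between diets was possible, and the spread between animals is unknown.

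A miRNA is a short RNA that guides an Argonaute protein to messenger RNAs, mainly by pairing of its seed, bases 2 to 8 from the 5′ end, and lowers their translation or stability. It is cut from a hairpin whose 5p and 3p arms can both be kept, and neighbouring hairpins are often cut from 1 long transcript. Cells also release miRNAs in EVs, small membrane vesicles that other cells take up. In the liver, miR-122 is the hallmark miRNA of hepatocytes, and diet-induced obesity is known to change the levels of several hepatic miRNAs that act on insulin signalling, lipid export and fibrosis.

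Of the 1881 miRNAs, 477 were above background on both wild-type arrays, 16 only in HFD-EV, 20 only in Chow-EV and 1368 in neither. Values below are scaled signals, in which 1 is the 75th percentile of an array, taken across the 443 miRNAs detected above background on each of the 4 arrays. A ratio is the log2 of HFD-EV over Chow-EV, and ± gives the SD between replicate spots of the same array, carried to the ratio. This spot SD covers noise within an array and leaves out differences between mice, cultures and EV preparations. Signals of different miRNAs are not on a common scale of abundance, because their probes bind and label differently.

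The miRNAs at the ends of the distribution share few seeds. Mature sequences of the miRNAs with the 12 largest ratios are shown first, from RefSeq on GRCm38.p6, 5′ to 3′, with the seed in capitals, so that the targets each could pair with can be compared.
miR-141-5p: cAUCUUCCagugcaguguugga
miR-1969: aAGAUGGAgacuuuaacaugggu
miR-210-3p: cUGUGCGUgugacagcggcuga
miR-18a-5p: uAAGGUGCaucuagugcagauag
let-7e-5p: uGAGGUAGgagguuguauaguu
miR-6345: uAGCACUGcucagggugaacu
miR-31-5p: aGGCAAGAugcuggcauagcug
miR-7005-5p: cCUGGGGAugggaggaccagca
miR-3474: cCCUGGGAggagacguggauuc
miR-6351: uAGCGUUGcucagggagcacaug
miR-99b-5p: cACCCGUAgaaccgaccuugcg
miR-690: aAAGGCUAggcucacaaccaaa

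Of the miRNAs with the 12 smallest ratios, these 8 matched an entry in the same RefSeq table, and the other 4 were miR-8097, miR-3960, miR-6407 and miR-6935-5p.
miR-7037-5p: aAGGUGGCcacaggagaucauggu
miR-6239: uAGCGUUGgaucacucggug
miR-3102-3p: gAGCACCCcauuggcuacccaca
miR-8090: gAAGCGCAguggaggucugu
miR-6915-5p: aGGUCAGAgcagauggagguucgu
miR-490-5p: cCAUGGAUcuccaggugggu
miR-6349: uGGAAUGUgggaggggcaugcg
miR-8110: aAGCGUGGauugggggggggg

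1 seed, AGCGUUG, stands in both sets: miR-6351 was among the largest ratios and miR-6239 among the smallest, and they are the only 2 miRNAs in the RefSeq table with it. Their scaled signals were 0.380 for miR-6351 and 0.0433 for miR-6239 in HFD-EV, against 0.184 and 0.102 in Chow-EV. Their ratios were 1.04 ± 0.15 and -1.24 ± 0.30, a wide gap that follows from picking the pair at the 2 ends of the distribution. Exactly 2 measured miRNAs shared each of 21 other seeds. The largest gap among those was 1.15, between miR-30c-2-3p at 0.38 and miR-30c-1-3p at -0.76. In all, 17 of these 22 pairs had ratios of 1 sign, and the median gap was 0.32. With the total gene signal that Feature Extraction itself reports, miR-6351 was at -0.56, so that both miRNAs had ratios of 1 sign.

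Most miRNAs differed little between the diets. The median ratio over the 477 was 0.10, with quartiles at -0.23 and 0.38, and 344 of them (72.1%) lay within 1.5-fold. Of the 511 miRNAs with a ratio or a bound, 14 were higher in HFD-EV by 2-fold or more (2.74%) and 9 were lower by as much (1.76%). Without scaling between the arrays, which moved every ratio up by 0.14, these counts were 32 and 5. Background correction by normexp left 2 in either direction, and the authors' normalised values gave 2 higher and 3 lower, while 3 other scalings gave 14 to 16 lower and the total gene signal 17 higher and 22 lower. By spot noise alone many more stood apart: 159 of 477 were higher by over 2 spot SDs (33.3%) and 114 were lower (23.9%), so passing 2 spot SDs is a weak criterion here.

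**Figure D1:**
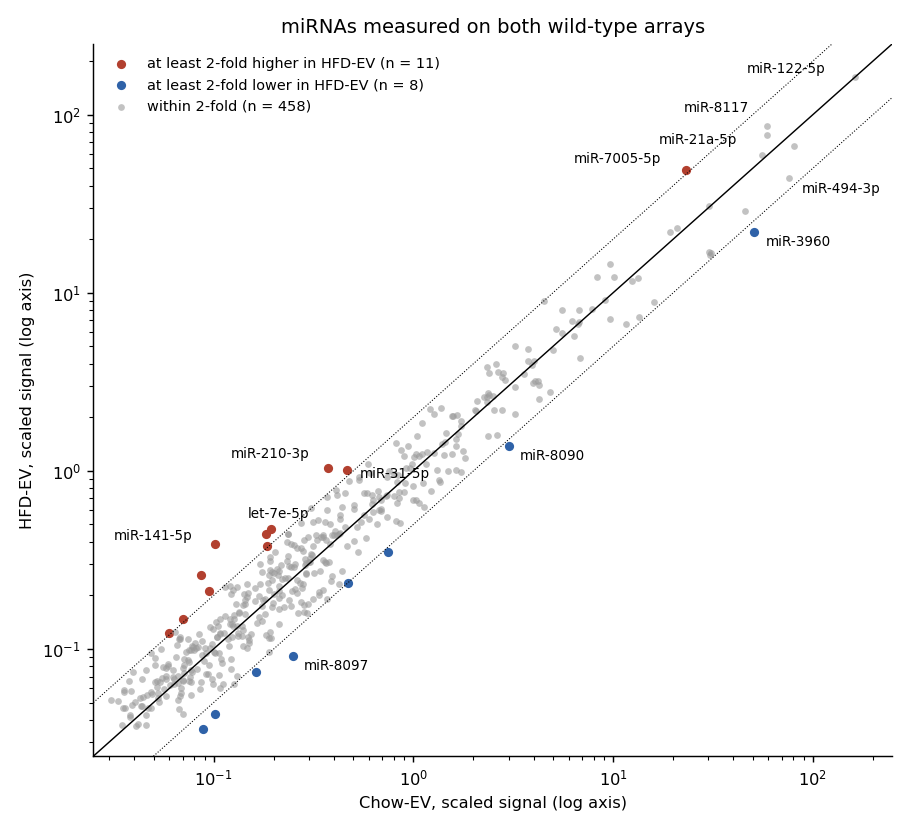
Scaled signal of each of the 477 miRNAs measured on both wild-type arrays, HFD-EV on the vertical and Chow-EV on the horizontal log axis, with 1 point per miRNA. The solid line marks equal signals and the dotted lines 2-fold. The 11 miRNAs above the upper dotted line and the 8 below the lower one run from dim to bright, from miR-99b-5p to miR-7005-5p above and from miR-7037-5p to miR-3960 below.

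The higher miRNAs with a well-studied locus are given first. miR-141-5p, the passenger arm of a miR-200 family hairpin of epithelial cells on chromosome 6, had a scaled signal of 0.388 ± 0.014 in HFD-EV and 0.101 ± 0.014 in Chow-EV. This was a 3.84-fold difference, the largest of all, with a log2 ratio of 1.94 ± 0.21, which was 0.11 with the total gene signal. Its 3p arm, which is the arm with the known function, was not above background on either array. miR-210-3p, the miRNA most widely induced by hypoxia, which represses mitochondrial iron-sulphur cluster assembly, had 1.04 ± 0.03 in HFD-EV and 0.374 ± 0.019 in Chow-EV, 2.79-fold apart. miR-31-5p, which restrains fat cell differentiation, had 1.01 ± 0.05 in HFD-EV and 0.467 ± 0.020 in Chow-EV, 2.16-fold apart.

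The miRNAs with neighbours in the same cluster were these. miR-18a-5p of the miR-17-92 cluster had 0.471 ± 0.015 in HFD-EV and 0.195 ± 0.012 in Chow-EV. let-7e-5p had 0.441 ± 0.018 in HFD-EV and 0.183 ± 0.013 in Chow-EV. miR-99b-5p, which can repress the growth kinase mTOR and is encoded next to let-7e, had 0.123 ± 0.012 in HFD-EV and 0.0597 ± 0.0085 in Chow-EV. Both let-7e-5p and miR-99b-5p lie within the span of the protein-coding gene Spaca6 on chromosome 17.

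The remaining 6 of the 12 are less studied. miR-1969 had 0.262 in HFD-EV and 0.0869 in Chow-EV, miR-6345 had 0.211 and 0.0946, miR-6351 had 0.380 and 0.184, miR-3474 had 0.146 and 0.0700, in each case HFD-EV and then Chow-EV. miR-7005-5p, within the span of Lama5 on chromosome 2, was the only bright one, with 48.8 ± 1.65 in HFD-EV and 23.2 ± 0.55 in Chow-EV. miR-690, within the span of Fgf12 on chromosome 16, had 0.618 in HFD-EV and 0.309 in Chow-EV. It lay just under 2-fold and was not counted, as did miR-6378, a bright miRNA with 9.04 in HFD-EV and 4.53 in Chow-EV.

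Among the lower miRNAs, brighter ones are given first. miR-3960 was bright, with 22.0 ± 0.3 in HFD-EV and 51.1 ± 0.6 in Chow-EV, 2.33-fold lower in HFD-EV. miR-8090 had 1.38 ± 0.05 in HFD-EV and 3.0 ± 0.12 in Chow-EV, 2.17-fold lower. miR-8110 had 16.4 ± 0.2 in HFD-EV and 30.8 ± 0.3 in Chow-EV, 1.88-fold lower, and its sequence shown above ends in a run of 10 guanines.

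Several of the lower miRNAs were close to the lowest signal called above background, which was 0.0355 in HFD-EV and 0.0306 in Chow-EV. These values are not a sharp floor, since calls were made per probe. miR-878-3p, for example, had 0.0906 in HFD-EV and was not called there. miR-8097 had 0.0915 in HFD-EV and 0.251 in Chow-EV, the smallest ratio of all at -1.45 ± 0.21. miR-7037-5p had 0.0355 in HFD-EV, the lowest signal called above background there, and 0.0882 in Chow-EV, and its sign turned with the total gene signal, as did that of miR-6351. miR-6239 had 0.0433 in HFD-EV and 0.102 in Chow-EV, and 1 of its 2 probes was not above background on either array. Well above these signals, miR-6915-5p had 0.351 in HFD-EV and 0.749 in Chow-EV, and miR-6407 had 0.236 in HFD-EV and 0.472 in Chow-EV.

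4 of the 23 miRNAs at least 2-fold apart were above background on a single array, so they have a lower limit in place of a ratio. Each limit was taken against the lowest signal above background on the other array, or the miRNA's own signal there if higher. The limits carry no spot SD and are approximate. On the HFD-EV side, miR-3061-5p had 0.102 in HFD-EV and 0.0371 in Chow-EV, at least 2.74-fold higher, and miR-3069-3p had 0.0836 in HFD-EV and 0.0246 in Chow-EV, at least 2.73-fold higher. miR-96-5p, of the miR-183 cluster, had 0.0718 in HFD-EV and 0.0207 in Chow-EV, at least 2.35-fold higher. On the Chow-EV side, miR-3057-5p had 0.0341 in HFD-EV and 0.0799 in Chow-EV, at least 2.25-fold lower. miR-712-3p, at least 1.92-fold lower and so short of the 2-fold count, came from a hairpin whose 5p arm was higher in HFD-EV by 0.73 (log2). In the same way miR-423-3p had a limit of 1.81-fold toward Chow-EV while miR-423-5p was higher in HFD-EV by 0.47 ± 0.14.

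The bright miRNAs with a large difference in scaled signal are given as a description, since their order also follows how bright each probe is. miR-8117 had 86.5 ± 1.6 in HFD-EV and 59.0 ± 0.5 in Chow-EV. miR-7005-5p, given above, differed by 25.6. The next was miR-21a-5p, a miRNA induced by inflammation and in fibrosis that represses Pdcd4. miR-21a-5p had 76.8 ± 1.9 in HFD-EV and 59.1 ± 1.7 in Chow-EV. let-7f-5p and miR-6378 differed by 4.94 and 4.51. In the other direction stood miR-494-3p, from the imprinted Dlk1-Dio3 region of chromosome 12, with 43.9 ± 1.1 in HFD-EV and 76.2 ± 1.2 in Chow-EV. With it stood miR-3960 and miR-8110, given above. miR-3473b had 28.8 in HFD-EV and 45.7 in Chow-EV, and miR-6769b-5p had 16.8 in HFD-EV and 30.8 in Chow-EV.

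The sequences of these bright miRNAs, besides those shown above, are these, with the seed in capitals.
miR-8117: gCUCGUGUggaacagaagggg
miR-21a-5p: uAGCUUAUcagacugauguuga
miR-494-3p: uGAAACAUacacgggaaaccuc
miR-3473b: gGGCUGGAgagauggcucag
miR-6769b-5p: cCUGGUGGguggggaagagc

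miR-122-5p, whose probes were the brightest, had the same scaled signal on both diets within spot noise, 162.9 ± 4.6 in HFD-EV and 162.7 ± 4.1 in Chow-EV. Without scaling between the arrays its ratio was 0.146 ± 0.055, higher in HFD-EV by over 2 spot SDs. Over all settings it lay between -0.098 and 0.205. In a separate measurement, the study reported more miR-122 in hepatocyte EVs on the high-fat diet than on chow. Of the 10 brightest, miR-7042-5p had 59.6 in HFD-EV and 56.0 in Chow-EV and miR-3963 had 30.8 in HFD-EV and 30.4 in Chow-EV, ratios of 0.09 ± 0.03 and 0.02 ± 0.05, the first of which turned sign under 2 other scalings. miR-5126 was lower in HFD-EV, with 67.1 ± 1.1 against 80.2 ± 1.1 in Chow-EV.

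The diet was also compared on the other 2 arrays, in EVs of mice without Ggpps. No array is shared with the wild-type comparison, but all 4 were on 1 slide and entered the same scaling set. Of the 11 miRNAs with a wild-type ratio of at least 1, 7 were measured on both knockout arrays, and all 7 were higher in HFD-LKO EV than in Chow-LKO EV, with a median of 1.07 and a lowest value of 0.76 ± 0.09 for miR-210-3p (0.54 without scaling). Of all 466 miRNAs detected on both knockout arrays, 289 (62%) were above 0. The other 4, miR-141-5p, miR-1969, miR-3474 and miR-99b-5p, were not above background on both knockout arrays. The scaled signal of miR-141-5p was 0.0923 in HFD-LKO EV and 0.0275 in Chow-LKO EV.

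The 8 miRNAs with a wild-type ratio of -1 or less were all measured there, and their knockout median was -0.23, or -0.45 without scaling. miR-3960 was again far lower on the high-fat diet, with 11.8 in HFD-LKO EV and 34.8 in Chow-LKO EV, a ratio of -1.55 ± 0.03. miR-6407 was at -0.68 ± 0.14, and miR-6349, which had just missed 2-fold in wild-type EVs, was at -1.21 ± 0.11. The others lay between -0.32 and 0.19, and miR-8097, lowest of all in wild-type EVs, was at 0.19 ± 0.12. Over all 466 the knockout median was 0.14, which was -0.082 without scaling and between -0.018 and 0.0036 under 4 other settings, and the ratio of miR-8097 was -0.03 without scaling. With 1 array per group, no difference between the genotypes in these diet ratios was tested.

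**Figure D2:**
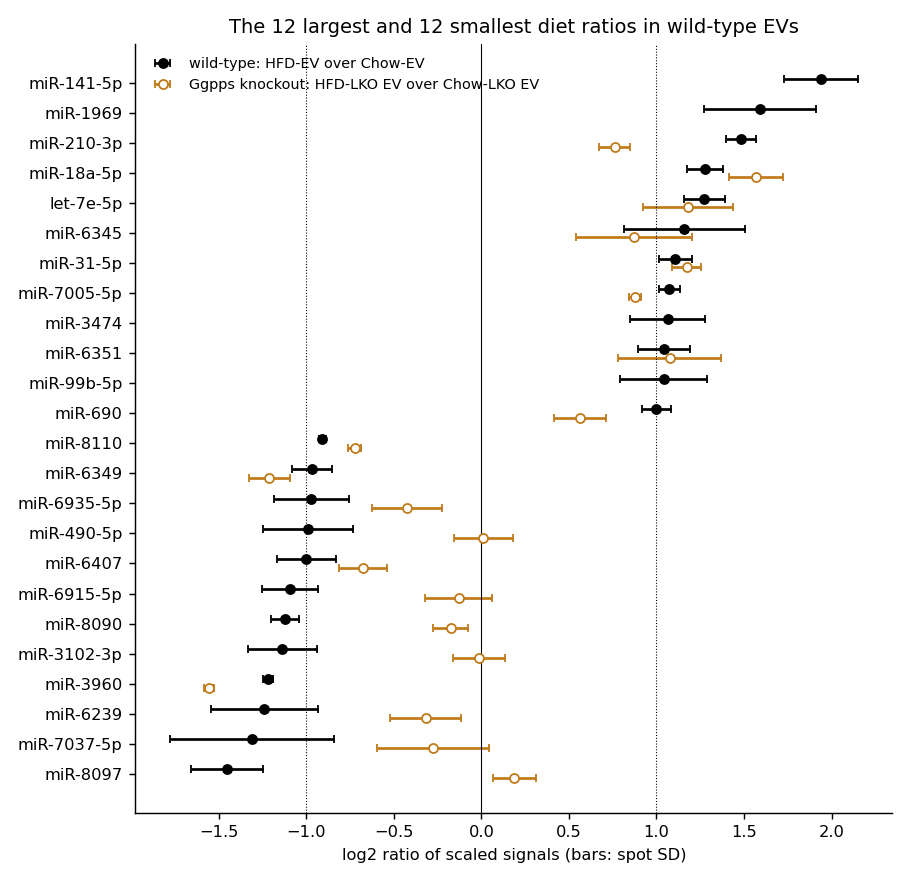
The 12 largest and 12 smallest wild-type ratios past 2 spot SDs (log2 of HFD-EV over Chow-EV, filled black points) with the ratio of HFD-LKO EV over Chow-LKO EV for the same miRNA (open orange points). Bars are spot SDs and dotted lines mark 2-fold, and miRNAs without an orange point were not above background on both knockout arrays. Of the 11 ratios above 1, the 7 with a knockout value have it at 0.76 or higher, whereas 5 of the 8 ratios below -1 have knockout values between -0.32 and 0 and miR-8097 lies at 0.19.

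let-7 miRNAs hold back proliferation and keep cells differentiated, in part by repressing Ras, Myc and Lin28, and their excess impairs insulin signalling in mice. The family was chosen with earlier results of these data known, and the study itself picked 4 of its members on these arrays, so its direction is a description. The 9 members carry the seed GAGGUAG, and they are shown because their ratios differed between sequences that are nearly alike.
let-7e-5p: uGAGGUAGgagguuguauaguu
let-7a-5p: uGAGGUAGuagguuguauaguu
let-7f-5p: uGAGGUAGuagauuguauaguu
let-7i-5p: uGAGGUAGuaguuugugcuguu
let-7d-5p: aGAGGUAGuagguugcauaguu
miR-98-5p: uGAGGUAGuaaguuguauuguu
let-7b-5p: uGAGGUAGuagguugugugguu
let-7c-5p: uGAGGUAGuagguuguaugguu
let-7g-5p: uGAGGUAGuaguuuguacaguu

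let-7a-5p, which differs from let-7e-5p at 1 position, had 12.3 in HFD-EV and 8.35 in Chow-EV, a ratio of 0.56 ± 0.03 against 1.27 ± 0.12 for let-7e-5p. Over all settings, let-7a-5p lay between 0.46 and 0.72 and let-7e-5p between 0.67 and 1.42. let-7c-5p, at 2 positions from let-7e-5p, had 7.97 in HFD-EV and 6.79 in Chow-EV. let-7g-5p, at 3 positions, had the smallest ratio of the family, 0.15 ± 0.06. Summed over the family, the scaled signal was 55.1 in HFD-EV and 40.6 in Chow-EV. let-7e-5p contributed 0.441 of the HFD-EV sum and 0.183 of the Chow-EV sum, so the brighter members set it. Probes can pair in part with near-identical members, and how far each probe did so was not measured. The family's median was 0.56, against 0.10 over all miRNAs, and all 9 were above 0, as were 286 of all 477 (60.0%). In the knockout EVs the median was 0.52.

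The miR-17-92 cluster and its paralogs promote proliferation and repress the cell cycle inhibitor p21. All 10 measured members, of the 12 on both the list and the array, were above 0 and higher by over 2 spot SDs, against 60.0% and 33.3% of all miRNAs. miR-20a-5p had 3.82 in HFD-EV and 2.35 in Chow-EV, and miR-19b-3p had 5.06 in HFD-EV and 3.24 in Chow-EV. The 5 members with the seed AAAGUGC fell into 2 steps that followed their gene cluster, and are shown for that reason.
miR-17-5p: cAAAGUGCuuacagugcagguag
miR-20a-5p: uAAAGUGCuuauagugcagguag
miR-20b-5p: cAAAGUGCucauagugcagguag
miR-93-5p: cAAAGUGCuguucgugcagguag
miR-106b-5p: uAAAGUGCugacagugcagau

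miR-17-5p and miR-20a-5p, from chromosome 14, were at 0.78 ± 0.16 and 0.71 ± 0.04, and miR-20b-5p, from the X chromosome, was at 0.71 ± 0.06. miR-93-5p and miR-106b-5p, from the cluster within the span of Mcm7 on chromosome 5, were at 0.38 ± 0.09 and 0.42 ± 0.09. With 2 or 3 members on either side, this order is a description. In knockout EVs the same 5 were at 0.93, 0.96, 0.94, 0.45 and 0.50, in the order just given. miR-18b-5p and miR-363-3p, neighbours of miR-20b-5p on X, were not above background on either wild-type array. The sequence of miR-20b-5p is close to those of miR-17-5p and miR-20a-5p, and pairing of its probes with these was not measured. The cluster on chromosome 14 with miR-17-5p, miR-17-3p, miR-18a-5p, miR-19a-3p and miR-20a-5p had the highest median of the 15 clusters with at least 3 measured members, 0.79, with a range from 0.71 to 1.28. Clusters here join measured miRNAs whose starts lie within 10 kb, with each miRNA placed at 1 position. miR-19b-3p and miR-92a-3p, at 0.64 and 0.37, are also encoded in the chromosome 14 cluster but were placed with miR-20b-5p on X. They are therefore left out of the median and range just given.

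miR-23, miR-27 and miR-24 are encoded together in 2 clusters, and miR-27 represses the fat cell regulator Pparg. The 5 measured 3p members were all higher by over 2 spot SDs (33.3% over all miRNAs), with a median of 0.56. miR-23a-5p was above background only in Chow-EV and at least 1.56-fold lower in HFD-EV. miR-23b-3p had 1.86 in HFD-EV and 1.1 in Chow-EV, a ratio of 0.76 ± 0.06, while its sister miR-23a-3p had 1.2 in HFD-EV and 1.01 in Chow-EV, 0.24 ± 0.06. The 3 members of the miR-29 family, which repress collagens and other matrix genes, were at 0.28 to 0.58. miR-29a-3p, the brightest of them, had 12.2 in HFD-EV and 10.1 in Chow-EV. The miR-15 and miR-16 family, inhibitors of cyclins and Bcl2, had 5 measured members, all above 0, with a median of 0.39.

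The miR-30 family was the counterexample among the larger families. Its 5p members share the seed GUAAACA, and miR-30c lowers lipoprotein export by repressing the transfer protein Mttp. Of the 7 arms on the list, all measured, 5 were below 0, 4 of them by over 2 spot SDs (23.9% over all miRNAs), with a median of -0.21. miR-30c-1-3p and miR-30c-2-3p were also measured but were not on the list, at -0.76 ± 0.15 and 0.38 ± 0.19. Without scaling the median of the listed arms was -0.067, and 1 was lower and 2 were higher by over 2 spot SDs. Over all 477 miRNAs, 80 were lower and 221 higher by as much without scaling. miR-30c-5p had 1.3 in HFD-EV and 1.78 in Chow-EV, a ratio of -0.45 ± 0.07. miR-30b-5p had 1.23 in HFD-EV and 1.42 in Chow-EV. miR-30a-5p, the brightest member, was nearly equal, with 6.88 in HFD-EV and 6.75 in Chow-EV, and miR-30e-5p was higher, at 0.15 ± 0.05. In knockout EVs the median of the listed arms was -0.16.

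miR-99, miR-100 and miR-125 are encoded beside let-7 genes in several clusters and split in direction. miR-99b-5p and miR-125a-5p, both from the let-7e cluster on chromosome 17, were at 1.04 ± 0.25 and 0.51 ± 0.15. miR-99a-5p and miR-100-5p, which share the seed ACCCGUA with miR-99b-5p, were at -0.02 ± 0.07 and 0.03 ± 0.16, and miR-125b-5p, with the seed of miR-125a-5p, was at -0.32 ± 0.08. The miR-148 and miR-152 family, which acts in lipoprotein receptor control, was near 0 in all 3 members, from 0.07 to 0.09, and the sign of miR-148a-3p turned under 3 other scalings.

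miRNAs of insulin signalling were mostly higher. Of 13 on the list, 9 were measured and 8 were higher by over 2 spot SDs, against 33.3% of all miRNAs, with a median of 0.43. Among the 8 are the miR-29 miRNAs given above. miR-103-3p, miR-26a-5p, miR-221-3p and miR-222-3p also stand in other lists given here. miR-103-3p and miR-107-3p, which impair insulin sensitivity by repressing caveolin-1, had 0.887 and 1.56 in HFD-EV, against 0.534 and 1.04 in Chow-EV. miR-802-5p, which is known to rise in obese liver and to worsen glucose tolerance, was the 1 member lower, with 0.207 in HFD-EV and 0.261 in Chow-EV, a ratio of -0.34 ± 0.11. miR-375-3p, the islet miRNA, was not above background.

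For lipid and cholesterol metabolism, 11 of 16 were measured, 7 were higher by over 2 spot SDs and 2 lower (33.3% and 23.9% over all miRNAs), and the median was 0.27. miR-34a-5p, which p53 induces and which represses Sirt1, had 1.09 in HFD-EV and 0.592 in Chow-EV, a ratio of 0.88 ± 0.06. miR-370-3p, which represses the fatty acid oxidation enzyme Cpt1a and lies like miR-494-3p in the Dlk1-Dio3 region, had 2.76 in HFD-EV and 4.85 in Chow-EV, a ratio of -0.81 ± 0.06. miR-33-5p, encoded in Srebf2 and the repressor of the cholesterol exporter Abca1, was not above background on either array.

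Regulators of fat cell differentiation had medians above 0 in both of their opposed lists. Of 12 that promote it, 9 were measured, with 6 higher and 1 lower by over 2 spot SDs (33.3% and 23.9% over all miRNAs) and a median of 0.38. miR-210-3p had the largest ratio, and miR-30d-5p was the lower one at -0.15 ± 0.07. Of 12 that restrain it, 8 were measured and all 8 were higher by over 2 spot SDs, with a median of 0.64, while miR-130b-3p was above background only in Chow-EV and at least 1.44-fold lower in HFD-EV. In this group miR-222-3p had 0.313 in HFD-EV and 0.192 in Chow-EV, and miR-155-5p had 0.385 in HFD-EV and 0.252 in Chow-EV. miRNAs of brown and beige fat had a median of -0.01, or 0.13 without scaling. Of 7 measured, 1 was higher and 2 were lower by over 2 spot SDs (33.3% and 23.9% over all miRNAs). miR-193a-3p and miR-365-3p, which act in brown fat cell formation, were both within 0.01 of 0. Of 9 measured miRNAs of liver fibrosis, 8 were higher by over 2 spot SDs (33.3% over all miRNAs), with a median of 0.38. All 8 also stand in other lists given here, and 3 of them are the miR-29 miRNAs that counter fibrosis. The 11 miRNAs named by the study had a median of 0.73. The study picked them with these arrays in view, so this median is no independent evidence. The exception is miR-122-5p, which it used as a hepatocyte miRNA and also reported as raised in hepatocyte EVs on the high-fat diet.

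**Figure D3:**
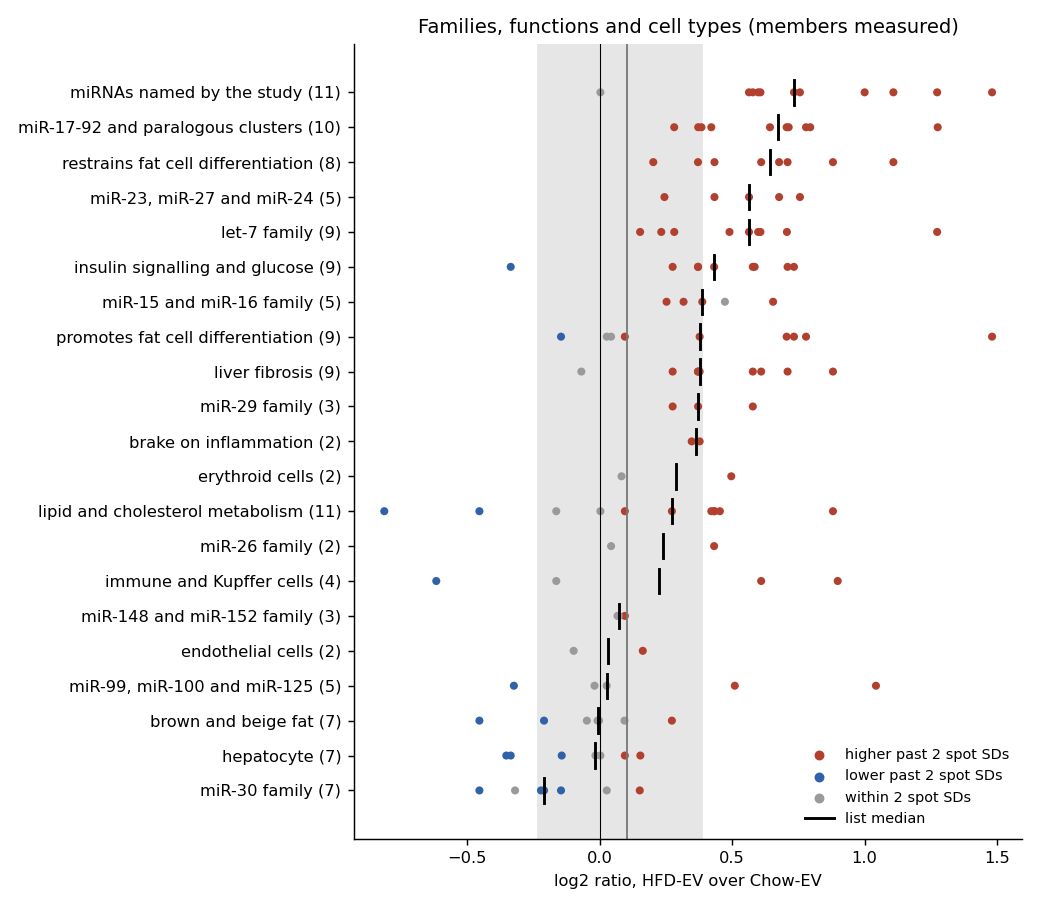
Ratio (log2 of HFD-EV over Chow-EV) of each measured member of the lists with at least 2 measured members, with the number measured in brackets. Red and blue points lie above and below 0 by over 2 spot SDs, the black bar is the list's median, and the grey line and band are the median and quartiles of all 477 miRNAs. Every point of the let-7, miR-17-92 and miR-23, miR-27 and miR-24 lists lies right of 0, while the miR-30 family, hepatocyte and brown fat lists have medians left of 0, the last 2 of which were at 0.13 without scaling.

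The label of the cells was checked against markers. The hepatocyte markers had a summed scaled signal of 186.2 in HFD-EV and 186.5 in Chow-EV, of which miR-122-5p made up 162.9 and 162.7. All 7 were measured, with 2 higher and 3 lower by over 2 spot SDs (33.3% and 23.9% over all miRNAs). Their median was -0.02, or 0.13 without scaling. miR-192-5p had 12.1 in HFD-EV and 13.3 in Chow-EV, and miR-101b-3p had 0.117 in HFD-EV and 0.149 in Chow-EV, a ratio of -0.35 ± 0.13. None of the 5 muscle markers and neither neuronal marker was above background.

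Some markers of other liver cells were measured, and their ratios went both ways. Of 6 immune and Kupffer cell markers, 4 were measured, with summed signals of 1.05 in HFD-EV and 0.911 in Chow-EV. Of these, 2 were higher and 1 was lower by over 2 spot SDs (33.3% and 23.9% over all miRNAs). miR-155-5p, given above, had a ratio of 0.61 ± 0.12. miR-142a-3p, of blood cells, had 0.226 in HFD-EV and 0.121 in Chow-EV, whereas miR-342-3p had 0.120 in HFD-EV and 0.184 in Chow-EV, miR-223-3p was within 2 spot SDs, and miR-150-5p was not above background. The endothelial miR-126a-3p had 2.67 in HFD-EV and 2.39 in Chow-EV, while its other arm, miR-126a-5p, had a ratio of -0.10 ± 0.25. The red cell miRNA miR-451a had 0.0790 in HFD-EV and 0.0560 in Chow-EV, while miR-486a-5p had a ratio of 0.08 ± 0.33. Of 5 markers of stellate and other mesenchymal cells, 1 was measured, miR-199a-3p, at -0.07 ± 0.36, and of 7 epithelial markers only miR-203-3p, at 0.02 ± 0.11. The part of these cells in the ratios above was not tested, and in pooled EVs more vesicles of a cell type and more miRNA per vesicle cannot be told apart.

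The 2 arms of a hairpin come from 1 transcript, but their ratios could differ. In 32 hairpins both arms were measured, and 17 had ratios of 1 sign, or 24 without scaling. In 2 of the 15 others each arm was past 2 spot SDs. The arms differed by a median of 0.28, and in 12 hairpins by over 2 spot SDs of the difference. miR-99b had the widest gap, with 1.04 ± 0.25 for the 5p arm and -0.49 ± 0.15 for the 3p arm. Its 3p arm had 0.174 in HFD-EV and 0.244 in Chow-EV. Over all settings its ratio lay between 0.22 and 1.19 for the 5p arm and between -0.59 and -0.23 for the 3p arm. miR-652 ran the other way, at -0.67 ± 0.09 for 5p and 0.47 ± 0.17 for 3p. miR-31 and miR-193a each had a 5p arm near 1 and a 3p arm at 0.20 ± 0.17 and -0.01 ± 0.08. By contrast the arms of miR-21a (0.38 and 0.36, the second of which turned to -0.02 with another background correction), miR-28a (0.78 and 0.77) and miR-122 (0.00 and -0.02) lay within 0.02 of each other. In knockout EVs miR-99b-3p was at -0.49 as well, while miR-99b-5p was not above background.

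**Figure D4:**
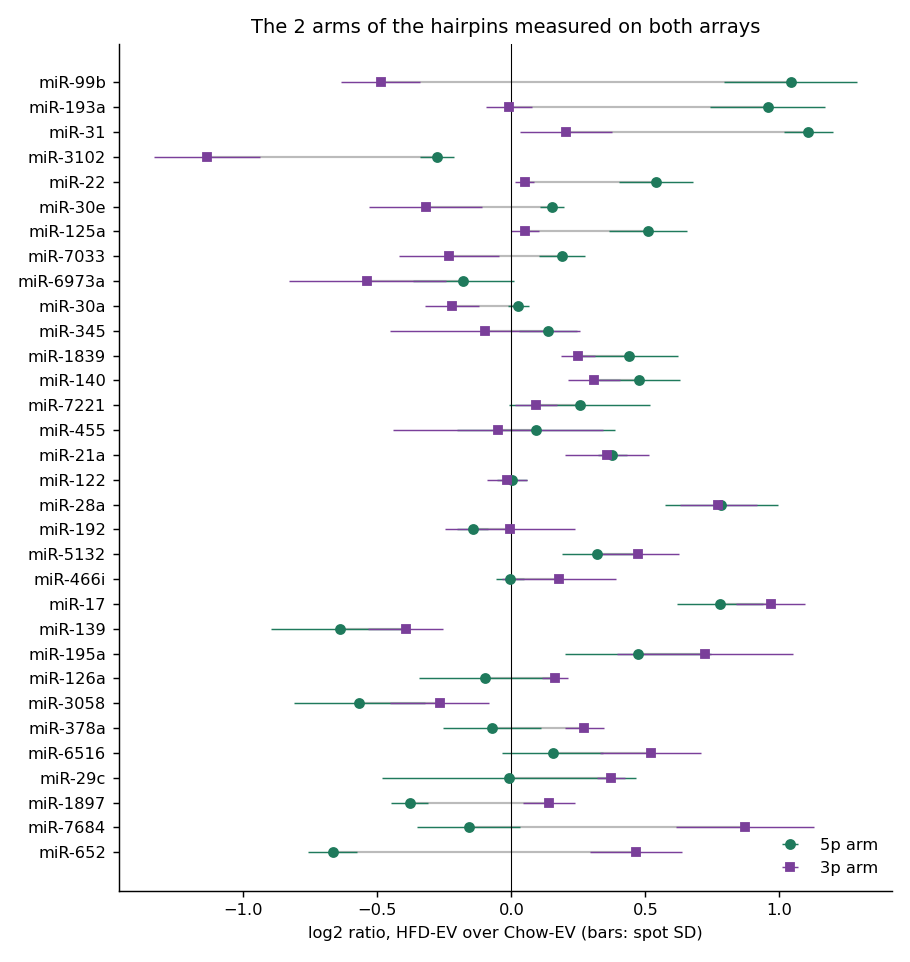
Ratio (log2 of HFD-EV over Chow-EV) of the 5p arm (green circles) and the 3p arm (purple squares) of each of the 32 hairpins with both arms measured, sorted by the gap between them. Bars are spot SDs. The arms of miR-99b and miR-652 lie on opposite sides of 0, each by over 2 spot SDs, while those of miR-21a, miR-122 and miR-28a coincide.

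Ratios by position in the genome are given as a description, with each miRNA placed at 1 position even where it is encoded at several. The lowest cluster median was -0.39, for miR-30c and miR-30e on chromosome 4, and the cluster with the widest range was that of miR-99b, let-7e and miR-125a, from -0.49 to 1.27. miR-192 and miR-194 on chromosome 19, both enriched in liver and gut, had a cluster median of -0.01. Among chromosomes, 7 had the lowest median, -0.17 over 41 measured miRNAs, and X the highest, 0.32 over 32. On chromosome 7, which also holds miR-210-3p, 17 of 41 were above 0, and on X 23 of 32, against 60.0% over all miRNAs. Both chromosomes were picked as the extremes.

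The base composition of the mature miRNA went with its ratio. RefSeq held a mature sequence for 407 of the 477 (85.3%), and they were divided into 4 groups by GC content. The group of lowest GC content, 27.3% to 47.8%, had a median ratio of 0.27, with 89 of 109 miRNAs above 0. The group of highest GC content, 65% and above, had a median of -0.12, with 41 of 95 above 0, and the 2 groups between had 0.09 and 0.11. Across the 407 miRNAs, which are not independent replicates and share both arrays, Pearson's r of GC content with the ratio was -0.28 and Spearman's rho -0.29. GC content did not go with signal (rho 0.01). In knockout EVs the lowest group was at 0.30 and the highest at -0.04. The largest ratios did not all follow this order, since miR-210-3p and miR-99b-5p have 63.6% GC and miR-7005-5p 68.2%.

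**Figure D5:**
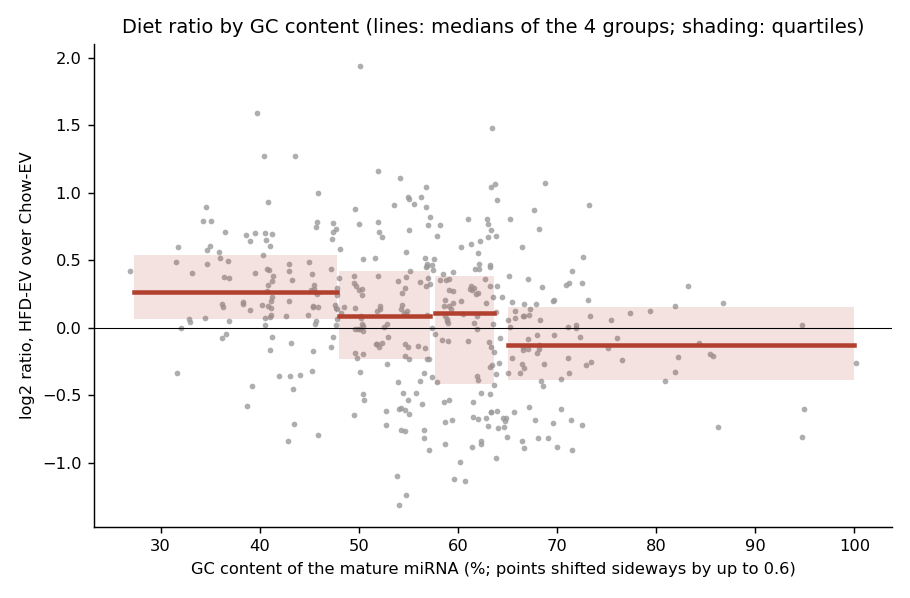
Ratio (log2 of HFD-EV over Chow-EV) of each of the 407 miRNAs with a RefSeq mature sequence against its GC content in percent. Red lines are the medians of 4 groups by GC content, at 0.27, 0.09, 0.11 and -0.12 from low to high, and the shading spans their quartiles. The groups overlap widely.

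2 short motifs known from human T cells as marks of miRNAs exported in EVs were looked up on the miRNA strand. GGAG was present in 132 of the 407 (32.4%), against 14.2% of all 1679 mature miRNAs in the RefSeq table. Its holders had a median ratio of 0.07 and the others 0.14. GGAG holders had more GC, with a median of 61.9% against 54.5%. The 407 had a median GC content of 57.1%, against 52.2% over all mature miRNAs in the RefSeq table. All 4 arrays held EVs and none held cells, so enrichment of the motif by export was not tested. CCCU was present in 21 (5.16%, against 11.4% of all), among them miR-125a-5p and miR-125b-5p. Its holders had a median of -0.32, with 6 of 21 above 0, and the others 0.12. CCCU holders also had more GC, with a median of 61.9% against 56.5%. A motif match is a description of the letters and not of binding.

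Long-known miRNAs differed from later ones in the same way. The 199 with a registry number below 1000, let-7 included, had a median ratio of 0.18 and a median GC content of 47.8%, with 6 ratios at 2-fold or more in favour of HFD-EV and 0 in favour of Chow-EV. The 204 with a number of 5000 or above had a median of 0.06 and 61.9% GC, with 3 and 6 such ratios. The 74 between had 0.09, with 2 and 2.

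How firmly a ratio was measured depended on brightness. The median spot SD was 0.28 among the 120 dimmest of the 477 and 0.06 among the 119 brightest. Of the 379 miRNAs with at least 2 probes above background on both arrays, 333 had probe ratios of 1 sign, and the probes differed by a median of 0.10. The probes of miR-210-3p gave 1.46 and 1.51, those of miR-3960 -1.21 and -1.23, and those of miR-8097 -1.43 and -1.48. miR-8117 was less even, at 0.26 and 0.68. Of the 4 probes of miR-141-5p, 2 were above background on both arrays, at 1.93 and 1.94. miR-6351 and miR-99b-5p each rested on 1 probe above background in Chow-EV.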

How the data were processed

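RNA of EVs pooled from 4 animals per group was hybridised to 1-colour Agilent mouse miRNA arrays, 1 per group. The intensity values were deposited as spot signals that the authors obtained with Agilent Feature Extraction 10.7.1.1, background-subtracted and detrended within the array without normalisation across arrays. The authors' comparison table holds normalised log2 signals, and their fold change columns, which hold the authors' own comparisons, were not used. The methods name scaling to U6 and GenePix Pro, whereas the array files are Feature Extraction output. Outlier spots, between 2146 and 2544 of 56430 per array, were left out, no spot was saturated, the 4 to 30 spots of a probe were averaged, the 1 to 4 probes of a miRNA were summed, and each array was divided by its 75th percentile, between 508 and 614. A miRNA was above background when over 50% of the spots of 1 of its probes were marked so. Members, lists and naming rules were chosen with earlier results of these data known. miRNAs named are the 12 largest and 12 smallest ratios past 2 spot SDs, the 5 largest bounds each way, the 10 brightest, the 5 largest gains and losses, their other arms, list members and extremes of clusters and seed families. miR-30c-2-3p, miR-652, miR-193a, miR-28a and single probes were named after their values were seen. The steps were tested on simulated spots. With 1 array per group, the number of arrays limits the precision. Alternatives covered scaling, background, probe summary, detection and filters. Python 3.11.15 with numpy 2.4.6 and pandas 2.3.3, and, for normexp, limma 3.58.1 in R 4.3.3 were used.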

Additional observations from a re-analysis of the deposited data

Results flagged for a closer look

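miR-5126, among the 10 brightest miRNAs, had diet ratios of opposite sign in the 2 genotypes once the arrays were scaled. It was lower in HFD-EV than in Chow-EV (67.1 against 80.2, a log2 ratio of -0.26 ± 0.03) and higher in HFD-LKO EV than in Chow-LKO EV (43.5 against 37.9, a log2 ratio of 0.20 ± 0.04). The wild-type ratio minus the knockout ratio was -0.46. Without scaling both ratios were below 0, at -0.11 and -0.02, and the difference was -0.09. Each ratio rests on 1 array per group, so the difference was not tested.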

How the results depend on the processing

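Without scaling between the arrays, 32 miRNAs were higher in HFD-EV by 2-fold or more and 5 lower, the median over all miRNAs was 0.25 and that of the knockout diet ratio -0.082. The list medians were then 0.71 for let-7, 0.82 for miR-17-92 and its paralogs, 0.71 for miR-23, miR-27 and miR-24, -0.067 for miR-30, 0.13 for hepatocyte markers, 0.42 for lipid and cholesterol metabolism, 0.57 for insulin signalling, 0.52 and 0.79 for promoting and restraining fat cell differentiation, 0.37 for immune markers and 0.88 for the miRNAs named by the study. With the percentile over all miRNAs, 15 were lower, the knockout median was -0.018 and the same lists, immune markers apart, were at 0.47, 0.58, 0.47, -0.31, -0.11, 0.18, 0.33, 0.28, 0.55 and 0.64. With median scaling, 16 were lower, the knockout median was -0.013 and the lists were at 0.46, 0.57, 0.46, -0.31, -0.12, 0.17, 0.33, 0.28, 0.54 and 0.63. With quantile normalisation, 14 were lower, the knockout median was 0.00, let-7 was at 0.68, miR-17-92 at 0.59, promoting and restraining fat cell differentiation at 0.28 and 0.49 and immune markers at 0.087.

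With a normexp background correction, whose offset of 50 per spot shrinks dim ratios, 2 were higher and 2 lower, the median was -0.020, the gap between the GC groups was 0.21 and not 0.39, and miR-17-92, miR-23, miR-27 and miR-24, lipid metabolism, promoting and restraining fat cell differentiation and the study's miRNAs were at 0.46, 0.42, 0.20, 0.27, 0.34 and 0.60. In the authors' comparison table, added after seeing the data, 2 were higher and 3 lower, with 0.50, 0.43, 0.21 and 0.38 for miR-17-92, miR-23, miR-27 and miR-24, lipid metabolism and restraining fat cell differentiation. With Feature Extraction's own total gene signal, also added, 22 were lower, miR-141-5p was at 0.11, miR-6351 at -0.56 and miR-7037-5p at 4.75. With the brightest probe, lipid metabolism was at 0.21. Where every probe had to be above background, 5 were lower, 9 hairpins had arms of 1 sign and the knockout median was 0.0036. At 1.5-fold, 82 were higher and 69 lower. The cause was not tested for the other settings.

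Of named miRNAs past 2 spot SDs, miR-148a-3p reversed with the percentile over all miRNAs, median scaling and quantile normalisation (-0.0020, -0.0056 and -0.067), miR-7042-5p with the first 2 of these (-0.0050 and -0.0085) and miR-21a-3p with normexp (-0.024). The log2 ratio of miR-210-3p lay between 1.07 and 1.62, that of miR-7005-5p between 0.972 and 1.295, that of miR-8090 between -1.22 and -0.98 and that of miR-3960 between -1.32 and -0.77 over all settings. Other ratios past 2-fold were far smaller in some settings. The lowest values were 0.22 for miR-99b-5p, 0.27 for miR-3474, 0.39 for miR-6345, 0.60 for miR-1969, 0.67 for let-7e-5p and 0.70 for miR-18a-5p. On the lower side, the highest were -0.37 for miR-6239, -0.46 for miR-3102-3p, -0.63 for miR-6407, -0.66 for miR-8097 and -0.79 for miR-6915-5p. The values of the series matrix were not run, since its HFD-EV column does not hold the signal of the comparison table. No paired analysis was possible because the 2 wild-type groups hold 1 sample each and so give a single pair. With 1 array per group, signal over background limits what dim miRNAs can show.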
